A study of Drosophila melanogaster with 8 samples.

Results

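The broad SIN3 domains are 529 genomic regions at which SIN3 187HA and SIN3 220HA each gave 1 wide ChIP-seq peak over the same stretch of DNA. They were chosen by the widths and overlap of the filtered peaks. Each peak shared at least 1 bp with exactly 1 filtered peak of the other isoform, both peaks were at least 1500 bp wide, and the wider was less than 2 times the width of the narrower. They formed 529 of the 3869 pairs in which each peak overlapped exactly 1 peak of the other list, called paired peaks from here on, and the other 3340 pairs served for comparison. The limit on the ratio of the widths removed 0 pairs, so the domains were in effect all paired peaks of which both were at least 1500 bp wide.

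SIN3 is the scaffold of a histone deacetylase complex, in which the enzyme RPD3 removes acetyl groups from histone tails. It is brought to chromatin through proteins that bind DNA, and much of its known binding lies near the start sites of genes. Alternative splicing of 1 gene gives Drosophila isoforms with different C-terminal ends. The balance of the 2 isoforms shifts over development, with more SIN3 187 once cells have differentiated. Peak callers usually mark the binding of a transcriptional regulator as a short interval around 1 summit, the base of highest enrichment. A wide interval can hold 1 long stretch of binding or several adjoining sites that the caller joined, and these cannot be told apart from the peak lists.

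The series mapped both isoforms in S2 cells, a Drosophila line of embryonic origin, with 2 replicates of the anti-HA immunoprecipitate and 2 of the input DNA for each isoform, 8 samples in all. The SIN3 187HA line carried a stable transgene for HA-tagged SIN3 187 under the metallothionein promoter and was induced with CuSO4. The SIN3 220HA line carried HA-tagged SIN3 220 under the same promoter and was not induced, since that promoter was leaky. Both lines descend from S2 cells, which express mainly untagged SIN3 220, a protein that lacks the precipitated tag. By the study's account little of it remained in the line expressing SIN3 187HA, so the lines also differ in the untagged protein. The isoforms were thus mapped in separate lines, and isoform, line and copper treatment cannot be told apart. The replicates had been joined before peaks were called, so each isoform had 1 list, replicate error could not be measured, and no difference was tested. Intervals are 95% exact intervals over peaks (Clopper-Pearson for shares, order statistics for medians) and cover counting error only. Positions are in the dm3 build and counted from 1.

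The filtered lists held 4903 SIN3 187HA peaks and 5810 SIN3 220HA peaks, of which 808 (16.5%) and 1043 (18.0%) were at least 1500 bp wide. The domains accounted for 65.5% of the wide SIN3 187HA peaks and 50.7% of the wide SIN3 220HA peaks. Of the remaining wide SIN3 187HA peaks, 110 were paired with a narrower SIN3 220HA peak, 87 overlapped several, 62 had a partner that overlapped a further peak, and 20 overlapped no filtered peak of the other isoform. Of the remaining wide SIN3 220HA peaks, 254 were paired with a narrower SIN3 187HA peak, 171 overlapped several, 38 had a partner that overlapped a further peak, and 51 overlapped none. Among the wide peaks outside the domains, pairing with a narrower peak of the other isoform was thus the most frequent case in both lists. The domains made up 10.8% of all filtered SIN3 187HA peaks but 23.7% of their bases, 1161 of 4904 kb. In the SIN3 220HA list they made up 9.10% of the peaks and 19.99% of the bases, 1205 of 6028 kb.

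The widths describe the choice and are given without a test. SIN3 187HA peaks in the domains were between 1501 and 5810 bp wide with a median of 1999 bp (interval 1941 to 2061). SIN3 220HA peaks were between 1503 and 5955 bp wide with a median of 2101 bp (interval 2057 to 2148). The median width of the narrower peak of a pair was 1933 bp (interval 1885 to 1984), and both peaks together covered a median of 2187 bp. The medians of the other paired peaks were 752 bp (SIN3 187HA) and 864 bp (SIN3 220HA). Most domains lay near the lower limit, since 294 had a narrower peak below 2000 bp, 185 lay between 2000 and 2999 bp, and 50 reached 3000 bp.

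The 3 pairs nearest the limit on each side overlapped in fold enrichment only through the first domain named here. The other domains just inside exceeded every pair just outside in both lists. The 3 domains just inside it lay on 2R at 5171232 to 5172935, on 3R at 16134537 to 16136042 and on 2R at 19409912 to 19411814, with narrower peaks of 1501, 1501 and 1503 bp. Their fold enrichments, which compare the pileup of fragments at the summit with the local input background, were 7.40, 15.8 and 11.5 (SIN3 187HA) and 7.54, 16.96 and 16.7 (SIN3 220HA). The 3 pairs just outside lay on 2R at 20289143 to 20290901, on 2R at 10505186 to 10507187 and on 3R at 21486595 to 21488309, with narrower peaks of 1499, 1499 and 1498 bp. They had fold enrichments of 8.20, 9.09 and 4.26 (SIN3 187HA) and 9.68, 8.75 and 5.94 (SIN3 220HA). With narrower peaks of 1499 and 1501 bp on either side, the limit did not fall at a gap in the widths.

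The 5 domains with the widest narrower peaks show the forms that a broad domain took. The widest lay on 2L at 5977070 to 5983024, where the SIN3 187HA peak spanned 5609 bp and the SIN3 220HA peak 5955 bp. Its edges differed by 217 and 129 bp, yet its summits were 4195 bp apart, the SIN3 187HA summit 453 bp from the nearer edge of its own peak at one end and the SIN3 220HA summit 1089 bp from the nearer edge of its own peak at the other. SIN3 187HA was enriched 7.45-fold there and SIN3 220HA 6.35-fold. The second lay on 3R at 13525439 to 13530445, with widths of 4964 bp for SIN3 187HA and 4963 bp for SIN3 220HA, edges 44 and 43 bp apart and summits 1853 bp apart. The pileup of SIN3 187HA was 790 and that of SIN3 220HA 1543, over backgrounds that were 3.32 and 3.98 times the medians of their lists. The domain on 2R at 16883426 to 16888357 had widths of 4895 bp for SIN3 187HA and 4896 bp for SIN3 220HA, and here the summits lay near the middle and 12 bp apart. In the domain on 3L at 4540602 to 4545498 the summits were 21 bp apart and off centre, 812 bp from the nearer edge for SIN3 187HA and 721 bp for SIN3 220HA. In the domain on 2L at 246482 to 251179 the summits were 732 bp apart. Shared outlines thus went with summits at 1 place in some of the widest domains and at separate places in others.

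**Figure D1:**
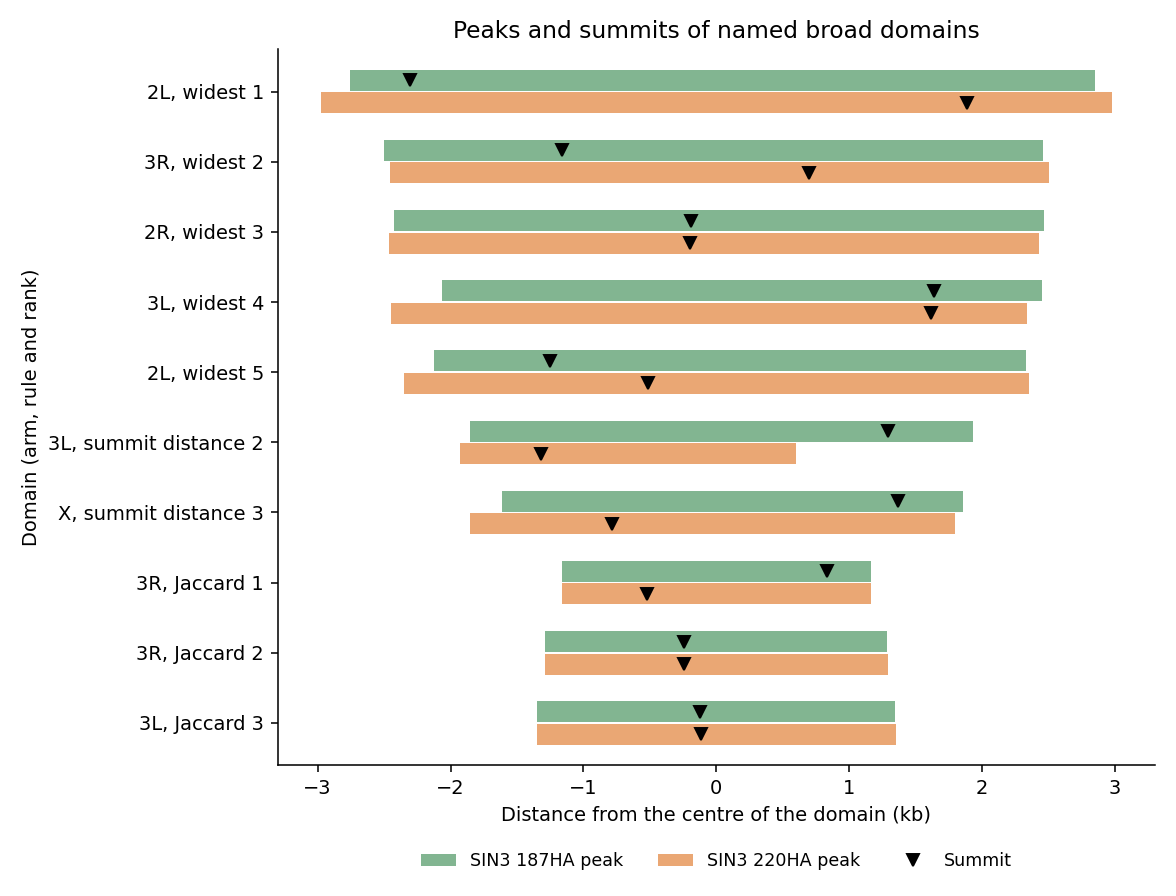
Outlines of the 5 domains with the widest narrower peak, the domains with the second and the third largest distance between summits (the largest is the widest domain), and the 3 domains with the highest Jaccard overlap. Bars are called peaks, SIN3 187HA above SIN3 220HA, triangles are their summits, and the axis is the distance from the centre of the domain in kb. The summits of the widest domain lie 4195 bp apart although its edges differ by 217 and 129 bp.

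The overlap of the peaks also describes the choice. Pairs of a wide and a narrow peak, 110 with a wide SIN3 187HA peak and 254 with a wide SIN3 220HA peak, were left among the other paired peaks, so differences from those in overlap, width ratio and nesting are fixed in part by the rule and nothing is read from them. The Jaccard overlap, the bases shared by both peaks as a percentage of those covered by either, had a median of 90.9% (interval 89.8 to 91.7) and ranged between 47.7% and 99.8%. The other paired peaks had a median of 78.1% (interval 77.4 to 78.8), and those of them with a narrower peak of 1000 to 1499 bp had 84.8% (interval 83.4 to 86.0). An offset of a given number of bp takes a smaller share of a wide peak, so the offsets of the edges were also compared in bp. The edges on the side of lower coordinates differed by a median of 62 bp in the domains and 74 bp in the other paired peaks, and those on the side of higher coordinates by 84 bp in the domains and 70 bp in the others. Both edges lay within 100 bp in 169 domains, or 31.9% (interval 28.0 to 36.1), against 33.6% of all paired peaks. A further 267 domains (50.5%) had 1 edge within 100 bp, and in 93 (17.6%) neither was. These offsets, too, come from the peaks that the rule selected.

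The 3 domains with the highest overlap had almost identical outlines. The domain on 3R at 23070162 to 23072491 had a Jaccard overlap of 99.8%, with edges 4 and 1 bp apart, but its summits were 1357 bp apart. SIN3 187HA had a fold enrichment of 7.99 there and SIN3 220HA 7.87. The domain on 3R at 24669332 to 24671913 overlapped by 99.7% and had its summits at the same base. The domain on 3L at 14777429 to 14780129 overlapped by 99.7% with summits 5 bp apart. At the other end, 7 domains (1.32%) overlapped by less than 60%, against 20.1% of the other paired peaks, and of these 7 the lowest, at 47.7%, lay on X at 8313096 to 8316858 with widths of 3287 bp for SIN3 187HA and 2271 bp for SIN3 220HA and summits 4 bp apart.

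The wider peak was more often that of SIN3 220HA. The SIN3 187HA peak was the wider in 194 domains, or 36.7% (interval 32.6 to 40.9), against 31.4% of all paired peaks. In 209 domains (39.5%) the SIN3 187HA peak lay wholly within the SIN3 220HA peak, in 72 (13.6%) the SIN3 220HA peak lay within the SIN3 187HA peak, and in 248 (46.9%) both edges were shifted in the same direction. The corresponding shares of the other paired peaks were 50.1%, 15.5% and 34.3%. The ratio of wider to narrower had a median of 1.07 and was below 1.1 in 312 domains (59.0%), against 28.5% of the other paired peaks. It was at least 1.5 in 12 domains (2.27%), 8 of them with the wider SIN3 220HA peak, against 24.3% of the other paired peaks, as a limit on both widths removes unequal pairs. The ratio nearest the limit of 2 was 1.95, on 3R at 13991759 to 13995068, where the SIN3 187HA peak was 1695 bp and the SIN3 220HA peak 3310 bp wide. The SIN3 220HA summits had the higher median pileups and backgrounds (below), and the part of these in the widths was not tested.

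**Figure D2:**
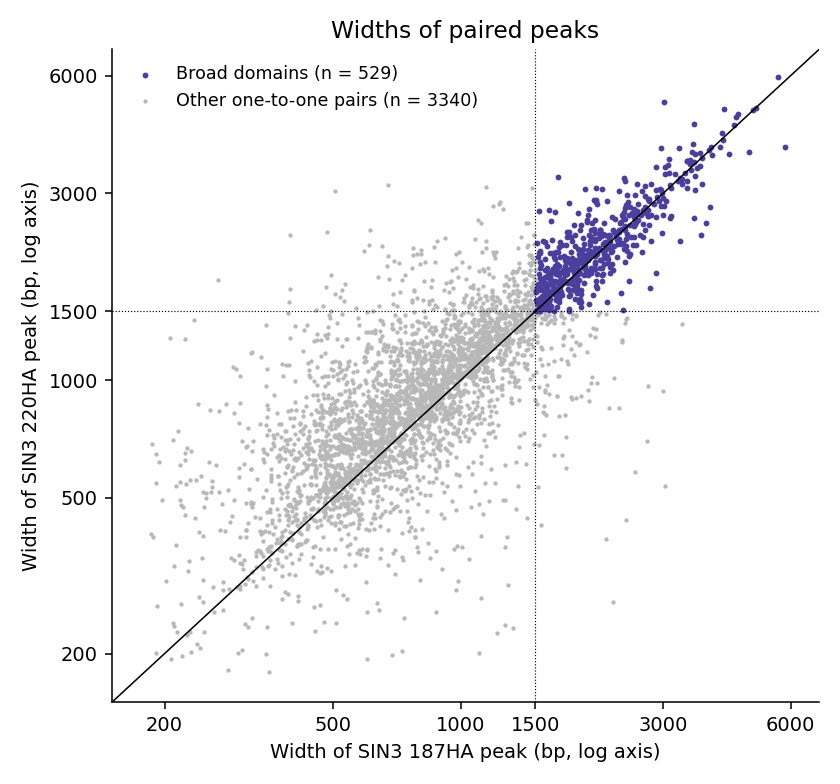
Width in bp of the SIN3 187HA peak (horizontal, log axis) and of the SIN3 220HA peak (vertical, log axis) in each pair. Purple points are the 529 broad domains, grey points the other 3340 paired peaks, the solid line marks equal widths and the dotted lines mark 1500 bp. The domains gather along the line of equal widths and reach 5810 bp for SIN3 187HA and 5955 bp for SIN3 220HA.

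The summits of both isoforms coincided in most domains, and a minority had them far apart. The distance between summits had a median of 29 bp (interval 22 to 36), with 25% of the domains above 235 bp and a maximum of 4195 bp. In the other paired peaks the median was 18 bp (interval 17 to 20) and the maximum 1915 bp. Summits lay within 100 bp in 364 domains, or 68.8% (interval 64.7 to 72.7), against 79.4% of all paired peaks. They lay at the same base in 29 domains (5.48%) and in 162 of the other paired peaks (4.85%). More than 500 bp separated them in 81 domains, or 15.3% (interval 12.3 to 18.7), against 4.16% of all paired peaks, and more than 1000 bp in 33 domains (6.24%).

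A wide peak gives a summit more room, so the distances were also set against width. The share of pairs with summits within 100 bp was 87.4% (interval 84.9 to 89.6) where the narrower peak was below 500 bp and 82.1% (interval 80.2 to 83.8) at 500 to 999 bp. It was 71.4% (interval 68.0 to 74.7) at 1000 to 1499 bp. Within the domains it was 69.4% (interval 63.8 to 74.6) at 1500 to 1999 bp, 67.6% (interval 60.3 to 74.3) at 2000 to 2999 bp and 70.0% (interval 55.4 to 82.1) from 3000 bp up. The share was thus lower in each wider class up to 1000 to 1499 bp, and beyond that the intervals of the classes overlapped. The share with summits over 500 bp apart was 12.6% (interval 9.02 to 16.9), 17.3% (interval 12.1 to 23.5) and 24.0% (interval 13.1 to 38.2) in the same 3 classes of domains. Distances were also taken as a share of the covered length. Summits lay within 5% of that length in 68.4% of the domains (interval 64.3 to 72.4) and in 68.8% of the other paired peaks (interval 67.2 to 70.4). They were more than 10% of that length apart in 24.8% of the domains (interval 21.1 to 28.7), against 20.4% of the other paired peaks (interval 19.1 to 21.8) and 24.6% of those of 1000 to 1499 bp (interval 21.5 to 28.0).

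**Figure D3:**
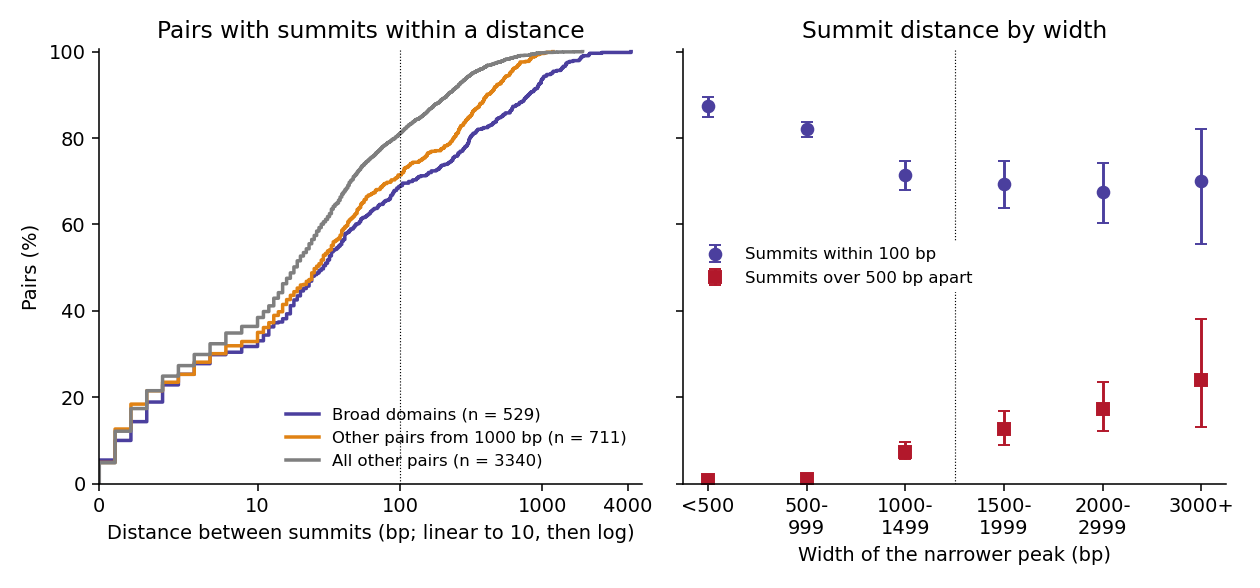
Left, the percentage of pairs with summits within a given distance in bp (linear to 10 bp, then logarithmic) for the 529 broad domains, the 711 other pairs with a narrower peak of 1000 to 1499 bp and all 3340 other pairs, with a dotted line at 100 bp. Right, the percentage of pairs with summits within 100 bp (circles) and over 500 bp apart (squares) by the width of the narrower peak, with 95% exact binomial intervals and a dotted line at the lower limit of the domains. Summits within 100 bp make up 68.8% of the domains.

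Domains with distant summits overlapped as much as the rest, and had lower median enrichment. The median Jaccard overlap was 91.7% in the 81 domains with summits over 500 bp apart, 92.4% in the 84 with summits over 100 and up to 500 bp apart and 90.5% in the 364 with summits within 100 bp. The median width of the narrower peak in these sets was 2052, 1878 and 1930 bp. Median SIN3 187HA fold enrichment was 7.13, 7.06 and 8.77 in the same order, and median SIN3 220HA fold enrichment was 8.11, 8.67 and 10.2. The ranges overlapped, since the domain with the highest SIN3 187HA fold enrichment of all, 36.6, was among the 81. Over the 529 domains the rank correlation of summit distance with fold enrichment was -0.26 (SIN3 187HA) and -0.25 (SIN3 220HA), where all points share the same joined libraries and inputs.

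After the widest domain, the largest distances between summits were 2611 bp on 3L at 130787 to 134647 and 2152 bp on X at 7954048 to 7957756. In the domain on 3L the SIN3 187HA peak, 3786 bp wide, ran 1335 bp past the end of the SIN3 220HA peak, 2526 bp wide, and its summit lay beyond that end. This was the only domain with its SIN3 187HA summit outside the SIN3 220HA peak, and in 1 other the SIN3 220HA summit lay outside the SIN3 187HA peak. In the domain on X the outlines overlapped by 91.8%, with fold enrichments of 9.95 for SIN3 187HA and 8.53 for SIN3 220HA. Apart from those 2 exceptions, every summit of a domain lay within the peak of the other isoform.

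Summits were less gathered at the centre of the peak in the domains than in the other paired peaks. The SIN3 187HA summit lay in the middle 20% of its peak in 24.2% of the domains (interval 20.6 to 28.1), against 39.9% of the other paired peaks, and in the outer 20% at either end in 24.95% of the domains (interval 21.3 to 28.9), against 7.66%. For SIN3 220HA the middle 20% held the summit in 25.9% of the domains (interval 22.2 to 29.9), against 43.8% of the other paired peaks, and the outer parts held it in 20.2% (interval 16.9 to 23.9), against 6.50%. A uniform spread would put 20% in the middle and 40% in both outer parts together, so summits in the domains still lay more often near the middle and less often near the ends than that. The summit was a median of 603 bp from the nearer edge for SIN3 187HA and 628 bp for SIN3 220HA in the domains, and 269 bp and 319 bp in the other paired peaks. In the other paired peaks of 1000 to 1499 bp the middle 20% held 28.0% of the SIN3 187HA summits and 32.1% of the SIN3 220HA summits. The outer parts held 12.7% (SIN3 187HA) and 10.4% (SIN3 220HA) there. Each of these values lay between those of the domains and of all other pairs. Position is measured along the width by which the domains were chosen, so these differences partly describe the choice.

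**Figure D4:**
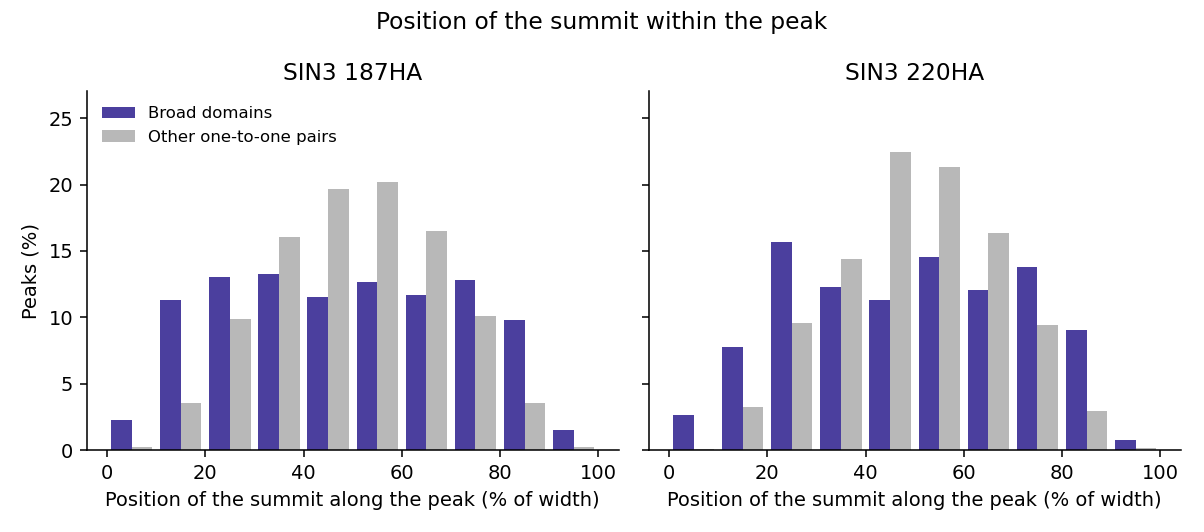
Percentage of peaks (vertical) by the position of the summit along the peak as a percentage of its width (horizontal, bins of 10%), for SIN3 187HA (left) and SIN3 220HA (right). Purple bars are the 529 broad domains and grey bars the other 3340 paired peaks. The middle 20% holds 24.2% of the SIN3 187HA summits and 25.9% of the SIN3 220HA summits in the domains.

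Broad domains ranged widely in enrichment but were few among the weakest peaks. Fold enrichment in the domains ranged between 3.14 and 36.6 for SIN3 187HA with a median of 8.22 (interval 7.96 to 8.56), and between 3.09 and 64.7 for SIN3 220HA with a median of 9.39 (interval 9.02 to 9.93). The other paired peaks had medians of 6.02 (SIN3 187HA) and 6.95 (SIN3 220HA). Those of them with a narrower peak of 1000 to 1499 bp had medians of 7.04 (SIN3 187HA) and 8.265 (SIN3 220HA). The domains held 4 of the 10 SIN3 187HA peaks of highest fold enrichment, 19 of the first 100 and 236 of the first 1000, against 10.8% of the whole list. They held 3 of the first 10 SIN3 220HA peaks, 21 of the first 100 and 213 of the first 1000, against 9.10% of the whole list. The weakest 10% of each list held 10 domains among 491 peaks for SIN3 187HA (2.04%) and 2 among 581 for SIN3 220HA (0.344%). The whole lists include peaks without a partner, which could not be domains. Width and enrichment also come from the same peaks, so these counts partly describe the choice. A fold enrichment of at least 10 in both lists was found in 132 domains (24.95%), against 9.55% of the other paired peaks. One below 5 in both was found in 10 domains (1.89%), against 13.9%. In the other paired peaks of 1000 to 1499 bp these shares were 15.3% and 5.63%. Values of that class thus lay between those of the domains and of all other pairs.

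Among the domains, width said little of enrichment. The rank correlation of fold enrichment with width over the 529 domains was 0.10 (SIN3 187HA) and 0.09 (SIN3 220HA), and over the other 3340 paired peaks SIN3 187HA had 0.31 and SIN3 220HA 0.36. The domains span a narrower range of widths, and the choice by width sets that range. Between the isoforms, the rank correlation of fold enrichment was 0.67 over the domains and 0.61 over the other paired peaks. Each is a description of joined libraries, in which the pairs share sequence, mappability and the chromatin of the same parent line.

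Of the 3 domains of highest fold enrichment, 2 were the same for both isoforms. SIN3 187HA was highest, at 36.6, in the domain on 2L at 12009955 to 12012914, where SIN3 220HA reached 16.8. The next was the domain on 3L at 4824453 to 4826412, with 34.6 for SIN3 187HA and 59.3 for SIN3 220HA and summits 23 bp apart close to one end. The domain on X at 11709723 to 11713287 had 30.5 for SIN3 187HA and 42.8 for SIN3 220HA, with summits 3 bp apart. SIN3 220HA was highest, at 64.7, in the domain on 2L at 15745420 to 15748422, where SIN3 187HA reached 30.5 and the summits were 7 bp apart. These 4 domains include the 3 of highest fold enrichment in each list. They stood in the list of SIN3 187HA peaks at places 3 to 6, and in that of SIN3 220HA at places 221, 4, 6 and 2 in the order given. Some of these values stood on low backgrounds. The SIN3 187HA background on X was 12.1 and the SIN3 220HA background on 3L was 15.2, each the lowest of its list. On 2L at 15745420 to 15748422 that of SIN3 187HA was 12.4. The list medians were 19.7 (SIN3 187HA) and 29.4 (SIN3 220HA). The part of low background in these ranks was not tested.

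Because the lists differ in pileup and background, the isoforms were compared relative to the median of all paired peaks. In the median pair SIN3 187HA fold enrichment was 0.86 times that of SIN3 220HA, and the source of that difference was not tested. SIN3 187HA had the higher value in 156 domains, or 29.5% (interval 25.6 to 33.6), against 32.6% of all paired peaks. Relative to the median pair, the log2 ratio of SIN3 187HA to SIN3 220HA in the domains had a median of -0.03 (interval -0.09 to 0.02) and an SD over domains of 0.44. In the other paired peaks its median was 0.01 (interval -0.02 to 0.02), with an SD of 0.50. The counting intervals of the broad domains and of the other paired peaks overlapped. Only 7 domains (1.32%) were more than 2 times higher in SIN3 187HA relative to the median pair, against 3.13% of all paired peaks, and 5 (0.945%) were more than 2 times lower, against 1.47%.

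**Figure D5:**
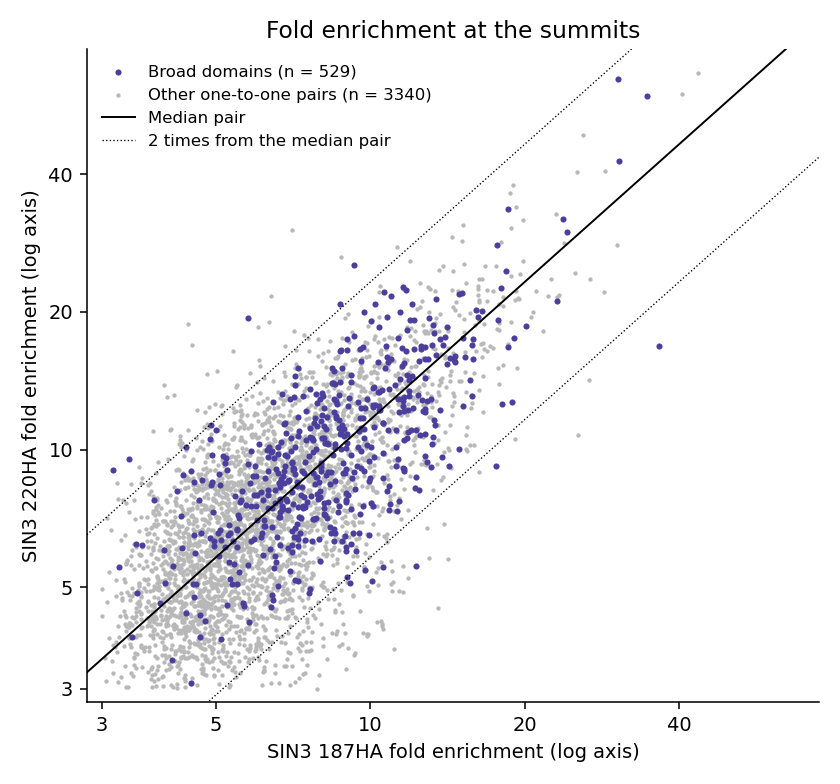
Fold enrichment over the local input background at the summit of the SIN3 187HA peak (horizontal, log axis) and of the SIN3 220HA peak (vertical, log axis). Purple points are the 529 broad domains and grey points the other 3340 paired peaks. The solid line marks the median ratio of all pairs and the dotted lines 2 times that ratio in either direction, beyond which lie 7 domains towards SIN3 187HA and 5 towards SIN3 220HA.

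Pileup and background were recovered from each fold enrichment and p-value to show what the ratios rest on. In the domains the pileup at the summit had a median of 178 fragments for SIN3 187HA (lowest 63, highest 7803) and 333 for SIN3 220HA (lowest 75, highest 1677). The expected background had a median of 20.8 (SIN3 187HA) and 33.5 (SIN3 220HA). The other paired peaks had median pileups of 125 for SIN3 187HA and 216 for SIN3 220HA, over backgrounds of 19.6 and 30.2. The higher fold enrichment of the domains thus went with pileups that differed more than the backgrounds did. Background differed between the lists from domain to domain, with an SD of 0.46 for its log2 ratio, against 0.53 for that of the pileup.

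The domains with the most unequal enrichment show both terms. The highest ratio, 2.21, was found on 2R at 9849422 to 9852425, where SIN3 187HA had a fold enrichment of 12.3 and SIN3 220HA 5.56, with both summits at the same base. SIN3 187HA had a pileup of 336 and SIN3 220HA one of 199, over backgrounds of 26.4 and 35.0. The second, 2.17, was the domain on 2L with the highest SIN3 187HA fold enrichment, where SIN3 187HA had a pileup of 969 and SIN3 220HA one of 827, over backgrounds of 25.5 and 48.2. The third, 1.96, lay on 3R at 27049100 to 27051215, with 10.1 for SIN3 187HA and 5.15 for SIN3 220HA, pileups of 170 and 189 and backgrounds of 15.9 and 35.9. In all 7 domains beyond 2 times, the ratio of SIN3 187HA to SIN3 220HA pileup was above that of the median pair. The same ratio of backgrounds was below that of the median pair in 5 of them. Fold enrichment is made of both terms, so the choice by its ratio partly builds in these counts.

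At the other end, the lowest ratio, 0.30, lay on 2R at 8059514 to 8063190. SIN3 187HA had a fold enrichment of 5.77 there and SIN3 220HA one of 19.4, with summits 1 bp apart. SIN3 187HA had a pileup of 182 and SIN3 220HA one of 550 over backgrounds of 30.7 and 27.3. Then followed a domain on 3L at 20340592 to 20342981, with 3.14 for SIN3 187HA and 9.02 for SIN3 220HA, and another between 20530290 and 20532087, with 3.38 for SIN3 187HA and 9.52 for SIN3 220HA. In the first of these on 3L the SIN3 187HA background was 48.6 and that of SIN3 220HA 29.4, and in the second they were 32.1 and 23.8. The higher SIN3 187HA background, there and on 2R, was the reverse of the usual order of the lists. In all 5 domains more than 2 times lower, the ratio of SIN3 187HA to SIN3 220HA background was above that of the median pair. The same ratio of pileups was below that of the median pair, which the choice by fold enrichment partly builds in. The part of the input in these ratios was not tested.

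In 6 domains (1.13%) the background was at least 4 times the median of its list in either list, a limit set after the values were seen, against 0.808% of the other paired peaks. The most extreme lay on 3R at 17485233 to 17487442, with a pileup of 7803 over a background of 438.7 for SIN3 187HA, 22.2 times the median of its list, and a pileup of 891 over 45.6 for SIN3 220HA. Fold enrichment was nonetheless similar, at 17.8 (SIN3 187HA) and 19.2 (SIN3 220HA), with summits 3 bp apart. A pair of neighbouring domains on 3L, at 631899 to 635605 and 638672 to 642059, had SIN3 220HA backgrounds of 190.4 and 272.1, or 6.47 and 9.25 times the median. The remaining 3 lay on 3L at 3416881 to 3419058, on 3L at 4540602 to 4545498, which is also the fourth widest domain, and on 3R at 25607680 to 25609576. Without these 6, median fold enrichment was 8.23 (SIN3 187HA) and 9.42 (SIN3 220HA).

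The domains were found on every large arm. There were 88 on X, 86 on 2L, 105 on 2R, 109 on 3L, 139 on 3R and 2 on chromosome 4. X held 16.6% of the domains (interval 13.6 to 20.1), against 14.2% of all paired peaks. Taken by chromosome, domains were 16.1% of the paired peaks on X (interval 13.1 to 19.4) and between 12.4% and 14.3% of those on the arms of chromosomes 2 and 3. The interval for X overlapped that of each of these arms. Domains on X had a median background of 14.8 for SIN3 187HA and 23.1 for SIN3 220HA, below the medians of every other arm, and median pileups of 134.5 and 247.5, also below them. On X the median fold enrichment was 8.44 (SIN3 187HA) and 9.54 (SIN3 220HA), within the range of the other arms. Of the 28 domains at the lowest background of the SIN3 187HA list 26 were on X, and of the 13 at the lowest of the SIN3 220HA list 12 were. The other paired peaks had 201 of 279 and 93 of 121 on X, so they too lay mostly on X. S2 cells have fewer copies of X than of the autosomes, and the part of copy number in these values was not tested.

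On chromosome 4, both domains had summits more than 100 bp apart. The domain at 89718 to 91227 had fold enrichments of 9.70 for SIN3 187HA and 11.7 for SIN3 220HA and summits 235 bp apart. The domain at 577471 to 579850 had 6.91 for SIN3 187HA and 8.53 for SIN3 220HA and summits 1399 bp apart. They were named because of their small number.

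A minority of the broad domains had another broad domain nearby. In 134 domains, or 25.3% (interval 21.7 to 29.3), a second one lay within 10 kb, and 19.3% of all paired peaks had a broad domain other than themselves within that distance. Nearness between domains is mutual, so the domains are not independent here and their interval may be too narrow. For the other paired peaks the share was 18.3% (interval 16.996 to 19.6). For those of 1000 to 1499 bp it was 21.1% (interval 18.2 to 24.3), which overlapped the interval of the domains. The median gap to the next domain was 37354 bp and the shortest was 140 bp, between the domains on 2L at 1665271 to 1667965 and 1668106 to 1669981. Joined over gaps of up to 10 kb, 395 domains stood alone, 118 formed 59 groups of 2, 12 formed 4 groups of 3, and 4 formed a single group. The filter that gives each peak exactly 1 partner removes crowded sites, so these counts cover domains and not all binding nearby.

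The group of 4 lay on X at 12467674 to 12491116, a span of 23443 bp, with gaps of 2839, 9706 and 2963 bp. Its SIN3 187HA peaks were 1846, 2093, 1610 and 1661 bp wide, and its SIN3 220HA peaks 2488, 1868, 1546 and 1722 bp. Fold enrichments in the same order were 11.9, 12.9, 10.2 and 6.66 (SIN3 187HA) and 12.2, 9.39, 13.7 and 7.70 (SIN3 220HA). The summits were 23, 30, 2 and 591 bp apart. The member of lowest enrichment in both lists was thus also the one with distant summits. The most compact group of 3 lay on 3R at 27043768 to 27051215, within 7448 bp, and held the domain with the third highest ratio of SIN3 187HA to SIN3 220HA. The first and second domains of that group had the opposite order, with 6.61 and 6.75 for SIN3 187HA and 10.1 and 8.76 for SIN3 220HA.

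Further unfiltered peaks were common around the domains. Within 5 kb of a domain but outside it there was at least 1 more SIN3 187HA peak in 84.7% of the domains (interval 81.3 to 87.7) and 1 more SIN3 220HA peak in 87.5% (interval 84.4 to 90.2). The corresponding shares of the other paired peaks were 81.3% for both isoforms. In those of 1000 to 1499 bp they were 85.1% for SIN3 187HA (interval 82.3 to 87.6) and 83.7% for SIN3 220HA (interval 80.8 to 86.3). These intervals overlapped those of the domains. The mean number of such peaks was 2.06 (SIN3 187HA) and 2.09 (SIN3 220HA) in the domains, and 1.84 and 1.90 in the other paired peaks. Each isoform had 1 joined list, so whether the domains with distant or unequal summits would recur in a further library was not tested.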

How the data were processed

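HA ChIP-seq of S2 lines expressing SIN3 187HA or SIN3 220HA was performed by the authors with 2 replicates of immunoprecipitate and input each. The authors demultiplexed with CASAVA 1.8.2, aligned unique reads to dm3 with Bowtie2, and called peaks with MACS2 2.1.0 against input, keeping duplicates. The names of the peaks show that replicates had been joined. The deposited unfiltered lists give a score, a fold enrichment (ratio), a −log10 p-value and q-value, and a summit offset, all from MACS2. The deposited filtered lists give positions of peaks that, by the study's methods, passed an irreproducible discovery rate threshold, stated there in differing ways, and were at least 3-fold enriched. They are recorded under input samples, and their starts count from 1. Keeping duplicates can raise pileups.

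Filtered peaks were matched to unfiltered ones by position and paired in Python 3.11.15 with numpy 2.4.6, pandas 2.3.3 and scipy 1.17.1. Pileup and background were solved from (pileup + 1)/(background + 1) and the Poisson p-value, with pileups within 0.05 of a whole number rounded. This gave whole pileups for 9008 of 9011 SIN3 187HA and 8860 of 8862 SIN3 220HA unfiltered peaks, and for all 529 domains in both lists. Depth beyond this is unknown, since the lists hold no read totals. The code was tested on simulated data. No test was made. The annotation used was of another build than dm3, so no gene was assigned and no sequence read, which leaves out the planned account of genes. The domains and measures were chosen with earlier results of these data known. Named domains were the 5 widest, the 3 extremes of fold enrichment, its ratio, summit distance and Jaccard overlap, the 3 on either side of the width limit, and the largest group. Others named were chosen after their values were seen. Alternatives were other limits on width, ratio, overlap, enrichment and distance, and the unfiltered lists. Figures were drawn with matplotlib 3.10.9.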

Additional observations from a re-analysis of the deposited data

How the results depend on the processing

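No paired analysis was possible because peak calling ran on both replicates of an isoform together, and for the same reason no replicate could be left out. A minimum width of 1000 bp gave 1229 domains, with a median narrower width of 1427 bp, a Jaccard overlap of 87.7%, fold enrichments of 7.61 for SIN3 187HA and 8.77 for SIN3 220HA, and 43.9% of domains within 10 kb of another. A minimum of 2000 bp gave 235 domains, a width of 2429 bp, an overlap of 91.7% and 13.6% within 10 kb. Both settings change which and how many domains enter. Jaccard overlap was 89.4% with partners of largest overlap and 92.2% with the unfiltered lists, and SIN3 187HA fold enrichment was 8.57 with both lists limited to 5-fold before pairing, where the cause was not tested. Summits lay within 50 bp in 60.1% and within 200 bp in 73.7%, and another domain lay within 5 kb of 15.7% and within 20 kb of 35.9%. The remaining 68 of 85 values, including all for X and for the wider peak, stayed within the interval of the main value or, for the number of domains, within 1.5 times it. The limit on the ratio of widths and an overlap of at least 50% of both peaks removed 0 domains. Leaving out the 6 domains of raised background was added after the values were seen.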
